A study of Mus musculus with 2 samples.

Results

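The genes of the mouse major histocompatibility complex (MHC), which carry symbols starting with H2-, were examined for CTCF binding in embryonic stem cells (ESC). All genes on chromosome 17 whose symbol starts with H2- in the GENCODE M1 annotation of mm9 were taken, which gave 42 of 37273 annotated genes, 36 of them protein-coding, with the symbol H2-Q2 given to 2 gene IDs. A region was the gene body plus 10 kb on each side, and the regions merged into 27 blocks of 904 kb in all, within a cluster span of 3.56 Mb (chr17:34065766-37630497). The study immunoprecipitated chromatin of an R1/E ESC line that carries CTCF with a GFP-containing LAP tag on a stably integrated bacterial artificial chromosome. One library was made with a goat antibody against eGFP and the other with goat IgG, which the labels also call input DNA, both from cells fixed with 1% formaldehyde and sonicated to about 500 bp. There was 1 library per antibody, so every interval and p-value below covers counting error between these 2 libraries only. The CTCF library held 8391191 tags and the IgG library 7988889 tags of 35 bases, each at a position of its own. The tagged protein is expressed beside the untagged one, and the reference genome comes from another mouse strain than R1/E, whose own sequence was not examined.

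MHC class I and class II molecules display peptides on the cell surface to T cells. Class I heavy chains pair with beta-2-microglobulin and present peptides made inside the cell, and class II alpha and beta chains present peptides taken up from outside, mainly in antigen-presenting cells. The chromosome carries the genes in blocks, with class II genes at one end, classical class I genes (H2-K and H2-D) on both sides of the class II and class III blocks, and the less polymorphic Q, T and M class I genes further on. CTCF is a zinc-finger protein that binds a long, directional motif and acts with cohesin in insulation and in chromatin looping.

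The sites on which the account below turns are shown with 5 flanking bases on each side, written 5′ to 3′ on the strand of the motif, with the 19 bases that matched the CTCF matrix in capitals. The matrix was built from CTCF sequences of the study's supplementary motif table. They were listed there for the study's own ESC sites of RAD21, a cohesin subunit, and not for its CTCF sites. The most frequent base of the matrix at each position reads TGGCCACCAGGGGGCACTA. The first set holds the highest site with a motif in each gene group. The sites lie at chr17:34272361-34272379 (plus strand, in the UTR of H2-DMa), chr17:34486556-34486574 (minus strand, near H2-Ea-ps and H2-Eb2), chr17:34128952-34128970 (minus strand, beyond the 3′ end of H2-K1), chr17:35557606-35557624 (plus strand, upstream of H2-Q6), chr17:36134134-36134152 (plus strand, beyond the 3′ end of H2-T24), chr17:36961255-36961273 (minus strand, beyond the 3′ end of H2-M10.6) and chr17:34171274-34171292 (plus strand, in an intron of Rxrb upstream of H2-Ke6).
class II loading, H2-DMa: ccgacCTTCCACCAGGGGGCGGAGgtctc
class II presenting, H2-Ea-ps: acgaaTGACCAGTAGATGGCGGAAttgac
classical class I, H2-K1: cctgtCTGCCAGTAGAGGGCGCCAgatct
Q genes, H2-Q6: tgtttCTTCCACCAGGCGGCGCCGttgcc
T genes, H2-T24: ccaaaAGGTCACTAGAGGGCAGCAtctga
M genes, H2-M10.6: actggAGACCAGAAGGTGGCAACAgacat
other, H2-Ke6: cacttTCTCCTCCAGGGGGCGCAGttggg

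The second set was chosen after the values had been seen, because 5 sites near class I genes and 1 site between H2-D1 and H2-Q2 carried the same motif word with the same flanks.
H2-K2, chr17:34119292-34119310, minus strand: tgtttCTTCCACCAGGCGGCGCTGttgcc
H2-K1, chr17:34140572-34140590, minus strand: tgtttCTTCCACCAGGCGGCGCTGttgcc
between H2-D1 and H2-Q2, chr17:35432949-35432967, plus strand: tgtttCTTCCACCAGGCGGCGCTGttgcc
H2-Q8, chr17:35526927-35526945, plus strand: tgtttCTTCCACCAGGCGGCGCTGttgcc
H2-Q7, chr17:35571979-35571997, plus strand: tgtttCTTCCACCAGGCGGCGCTGttgcc
H2-Q10, chr17:35602813-35602831, plus strand: tgtttCTTCCACCAGGCGGCGCTGttgcc

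CTCF sites lay near most H2 genes, and rarely inside them. A deposited CTCF peak overlapped the region of 30 of the 42 genes (71.4%), against 48.8% of all annotated genes, 61.2% of protein-coding genes, 58.9% of the genes on chromosome 17 and 63.9% of the 97 genes in the class III interval between H2-Ea-ps and H2-D1. Of the 36 protein-coding H2 genes, 24 had a peak (66.7%). Since regions overlap, the 30 genes shared 45 distinct peaks, which is 49.8 per Mb of H2 region, beside 16.2 summits per Mb over chromosome 17 and 35.6 per Mb in the class III interval. The measures differ. The 45 include every peak that touches a region, and 42 had their summit inside one. The other densities count summits, over the whole chromosome or interval rather than gene regions. In the share of genes with a peak, the gene bodies alone stood the other way round. A peak overlapped the gene body itself in 5 genes (11.9%, against 26.2% of all genes), namely H2-DMa, H2-Ob, H2-Aa, H2-Eb1 and H2-T23. H2 gene bodies are short. The median region with both flanks was 24.3 kb for H2 genes, 25.4 kb for all genes and 35.4 kb for protein-coding genes. The part of gene length in the body shares was not tested. A summit within 1 kb of the gene start was found for 2 genes, H2-DMa and the pseudogene H2-M6-ps, and the median distance from a gene start to the nearest summit was 8.74 kb.

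The groups differed in how their peaks were spread. All 3 genes grouped by symbol as classical class I had a peak in their regions, with 10 distinct peaks in 70.3 kb, or 142 per Mb. These are H2-K1, H2-D1 and H2-K2, of which H2-K2 is annotated as a pseudogene and had 3 of the peaks in its region. All 5 class II loading genes had a peak, with 9 distinct peaks or 87.4 per Mb. Their products form H2-DM, which edits the peptides bound by class II, and H2-O. For the 5 class II presenting genes, 4 had a peak, from 3 distinct peaks (29.6 per Mb). Among the Q genes 6 of 7 had a peak (40.5 per Mb) and among the T genes 6 of 7 (51.8 per Mb). The M genes stood lowest of the class I groups, with 5 of 13 and 27.2 per Mb. H2-Ke6, a steroid dehydrogenase gene with an H2- symbol, had 1 peak and H2-Ke2, a prefoldin subunit gene, had none. The other genes without a peak were H2-Ab1, the second H2-Q2 gene (ENSMUSG00000091705.2), H2-T3, H2-M10.2, H2-M10.1, H2-M10.4, H2-M11, H2-M9, H2-M1, H2-M3 and H2-M2. The map of the cluster shows where these genes lie between the sites.

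**Figure D1:**
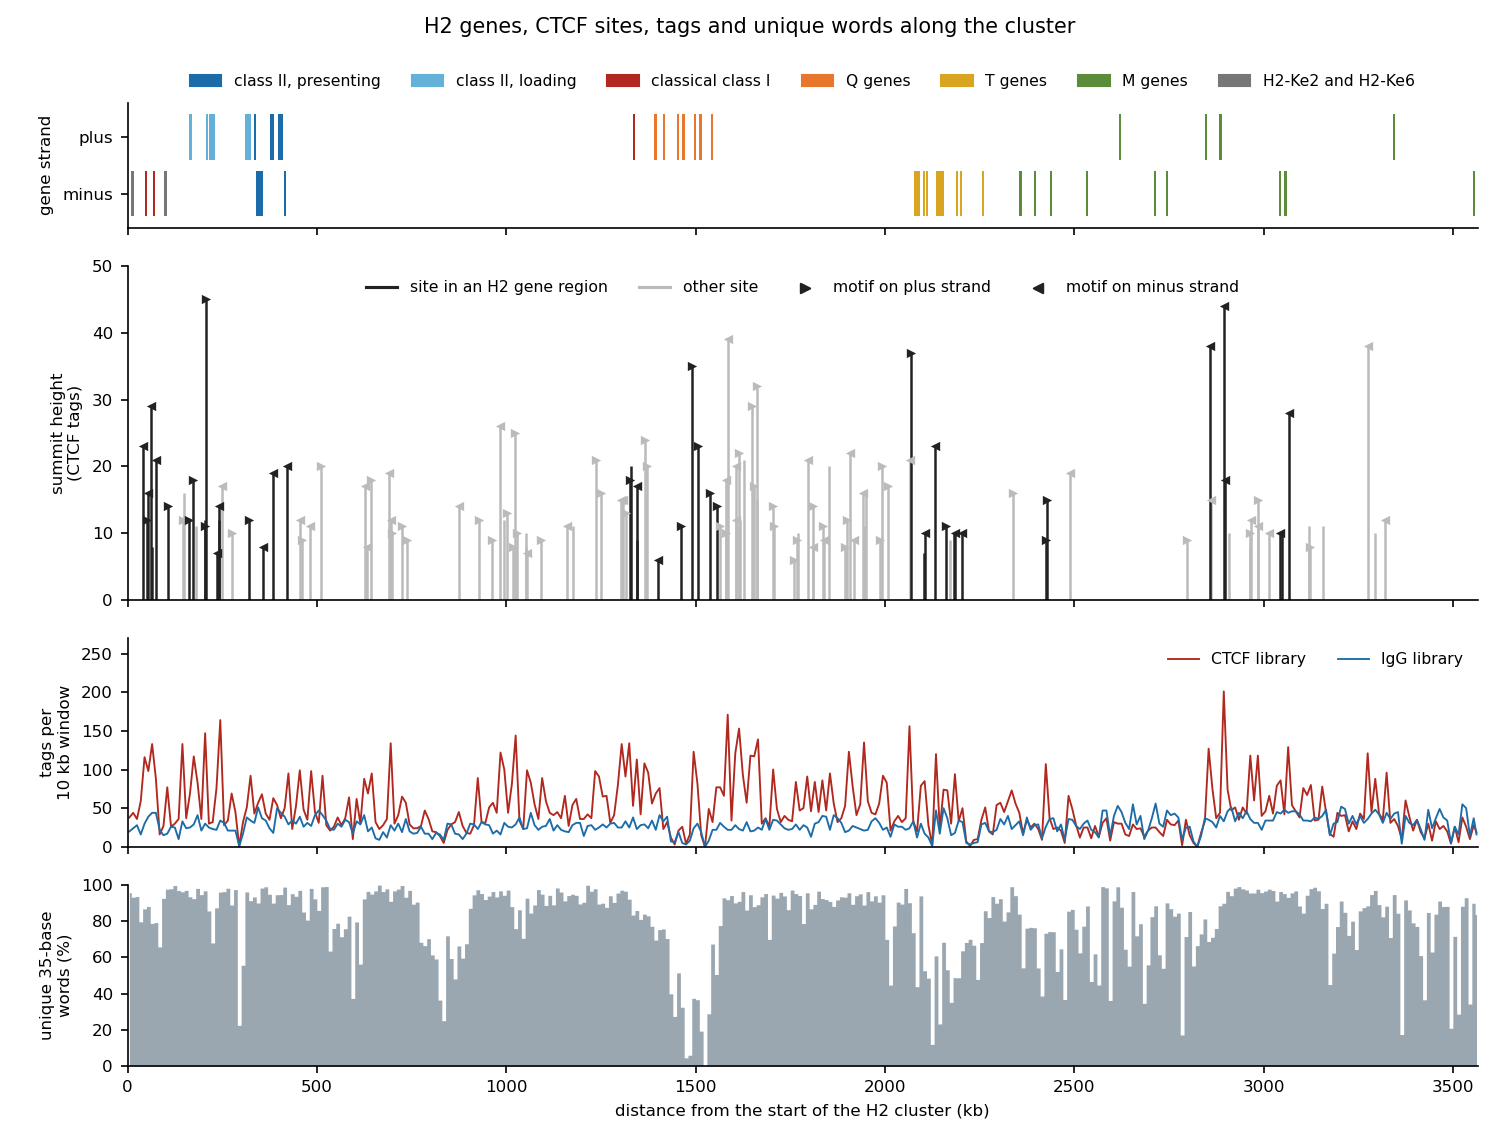
H2 genes by strand and group, summit heights of the 140 CTCF sites with the strand of their motif, tags of each library per 10 kb window, and the share of 35-base words that occur once in the genome, against distance from the cluster start in kb. The 45 sites in H2 gene regions are black and reach 45 tags; the D and Q block shows the lowest shares of unique words, and 307 kb among the M genes hold no peak.

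Summit heights in the H2 regions had a median near that of all sites, and 5 sites reached 30 tags or more. The height is the number of CTCF tags piled up at the summit, and its median over the 45 sites was 14 tags (6 to 45), beside 13 tags (6 to 89) over 33756 summits on chromosomes 1 to 19, X and Y. Each peak held 12 to 95 CTCF tags (median 30) and 0 to 15 IgG tags (median 2), and peaks were called for CTCF over IgG.

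The highest site lay 211 bp inside H2-DMa, the alpha chain of the peptide exchange factor of class II, in its UTR, with a height of 45 tags. Its peak held 55 CTCF tags and 3 IgG tags, and nearly all 35-base words there were unique (99.9%). The same peak lies within 10 kb of H2-DMb2, which encodes a beta chain of that factor, so both genes share it. The next 2 sites belonged to the M10 genes, class I genes known from vomeronasal neurons. A site 8.67 kb beyond the end of H2-M10.6 was 44 tags high, with 94 CTCF and 8 IgG tags. Another, 10.5 kb beyond the end of H2-M10.5, was 38 tags high, with 95 CTCF and 15 IgG tags, and its peak only reached into the region at the edge. At H2-T24 the site 8.59 kb past the end was 37 tags high, with 73 CTCF and 6 IgG tags. The site 4.09 kb upstream of H2-Q6 was 35 tags high, with 86 CTCF and 12 IgG tags. Counting intervals of these 5 heights (exact 95% Poisson intervals from 24.4 to 48.7 for H2-Q6 up to 32.8 to 60.2 for H2-DMa) overlap, so their order is not resolved.

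**Figure D2:**
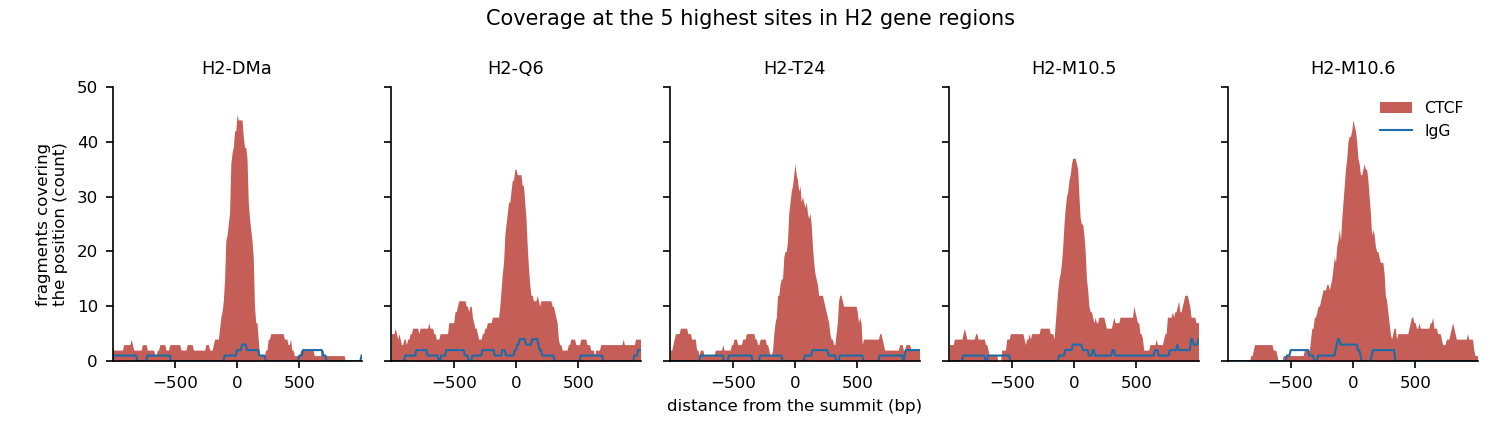
Number of fragments covering each position within 1 kb of the summit, in the CTCF library (filled) and the IgG library (line), unscaled counts, at the 5 highest sites in H2 gene regions. The CTCF heights run from 35 to 45 tags, and the IgG line stays below 10 in all 5 windows.

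The highest sites of the remaining groups were lower. The classical class I gene H2-K1 had its highest site 3.96 kb past its end, with a height of 29 tags and 61 CTCF against 11 IgG tags. The class II presenting genes H2-Eb2 and H2-Ea-ps shared a site of 20 tags, with 47 CTCF against 2 IgG tags. H2-Ke6 had a site of 14 tags with 41 CTCF tags and 1 IgG tag. Median heights per group ran from 10 tags in the T genes to 19 tags in the class II presenting genes.

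A CTCF site recurred upstream of class I genes. The 301-base windows around 6 of the 45 sites and around 1 site outside the regions matched one another over 200 bases or more, with 90.4 to 97% identity. The 6 sites lay 3.28 to 4.15 kb upstream of H2-K2, H2-K1, H2-Q8, H2-Q6, H2-Q7 and H2-Q10. In all 6 the motif pointed in the direction of transcription, although the K genes lie on the minus strand and the Q genes on the plus strand. The 6 peaks together held 227 CTCF and 27 IgG tags. Of 3 motif words that were shared by sites of the H2 regions, the word of these sites, CTTCCACCAGGCGGCGCTG, occurred 6 times in the whole of mm9, all 6 within the H2 cluster and all 6 in a deposited peak. The site at H2-Q6 differed from it by the change T18C, counted from 1 at the 5′ end of the motif with the H2-K2 word as the reference.

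Heights of this upstream site ranged from 11 to 35 tags. It was 16 tags at H2-K2, with 22 CTCF and 2 IgG tags. At H2-K1 it was 21 tags, with 40 CTCF and 6 IgG tags. H2-Q8, annotated as a processed transcript, had the lowest height of 11 tags (5.49 to 19.7), with 14 CTCF and 2 IgG tags. At H2-Q7, which encodes a Qa-2 chain, it was 23 tags with 37 CTCF and 4 IgG tags. H2-Q10, whose product is secreted by liver, had 16 tags with 28 CTCF tags and 1 IgG tag. The heights at H2-Q6 (24.4 to 48.7) and at H2-Q8 do not overlap in their counting intervals. The share of unique words in the peak was 37.5% at H2-Q8, 44.1% at H2-Q7, 64.4% at H2-Q6, 70.9% at H2-Q10, 72.7% at H2-K2 and 85.9% at H2-K1, and its part in the heights was not tested.

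The seventh site of the group, 24.4 kb upstream of the first H2-Q2 gene (ENSMUSG00000079507.4), where no H2 gene is annotated within 10 kb, was 24 tags high with 39 CTCF and 5 IgG tags. The other K, D and Q genes had no site of this group upstream. H2-D1 had a site of 20 tags 4.46 kb upstream, with 30 CTCF tags and 1 IgG tag, in which no motif passed the threshold and whose sequence did not match the group. The first H2-Q2 gene had 1 site, 4.88 kb past its end, with the lowest deposited height of all 45 (6 tags, 9 when recomputed from the tags, where 2 other sites stand at 7), 14 CTCF tags and 1 IgG tag. H2-Q4 reached only the site upstream of H2-Q8, and the second H2-Q2 gene had no site.

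**Figure D3:**
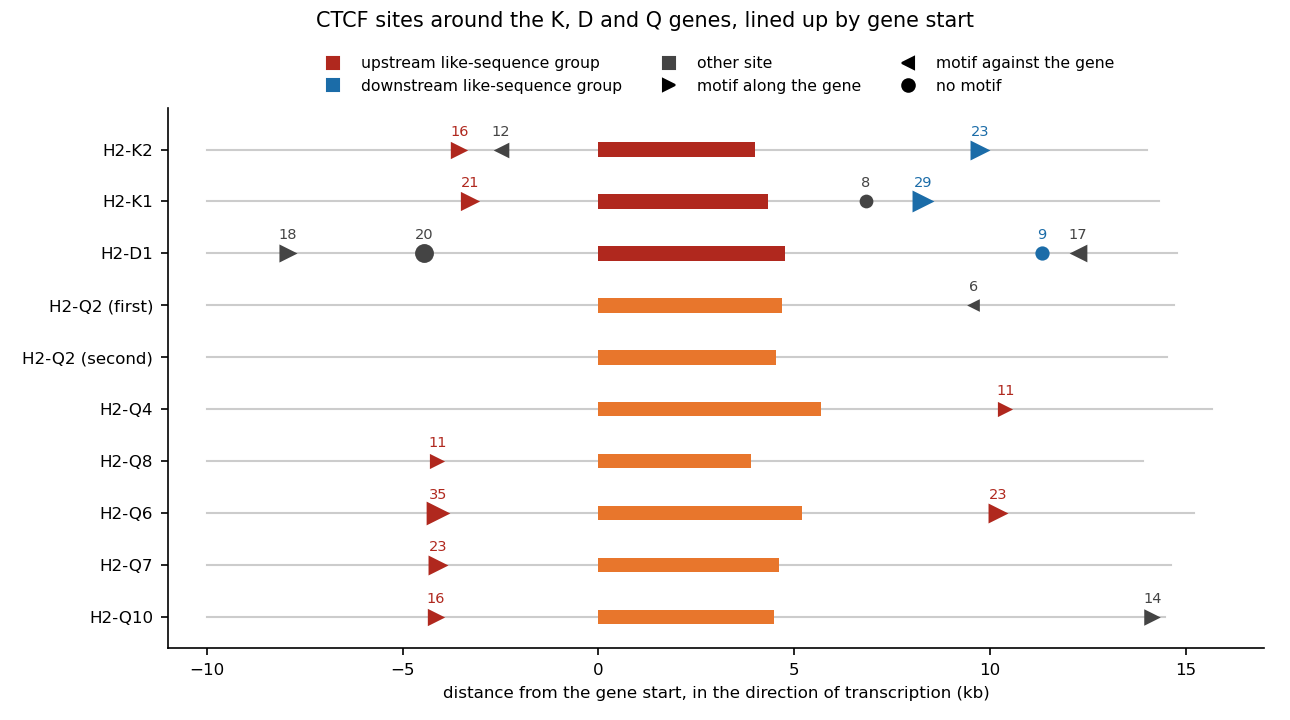
CTCF sites within 10 kb of 10 class I genes, lined up by gene start and direction of transcription, in kb. Triangles give the direction of the motif relative to the gene, circles sites without a motif, the numbers and marker sizes the summit height in tags; a site between 2 genes is drawn at both. The red sites with the shared upstream sequence sit 3.28 to 4.15 kb before 6 gene starts, all pointing along the gene.

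A second group of like sites lay beyond the 3′ ends of the genes grouped as classical class I, the pseudogene H2-K2 among them. It held sites 5.74 kb past the end of H2-K2 (23 tags, 79 CTCF and 4 IgG tags), 3.96 kb past H2-K1 (29 tags) and 6.56 kb past H2-D1 (9 tags, 25 CTCF and 2 IgG tags), and a site 18.6 kb upstream of the first H2-Q2 gene (20 tags, 37 CTCF and 2 IgG tags). Identities were 84.7 to 88.2%. The motif ran along the gene at both K genes, while the H2-D1 site had none that passed. The site near H2-Q2 followed that of the first group by 5.81 kb with its motif in the same direction.

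The third group joined the high M sites. Sites past the ends of H2-M10.3, H2-M10.5 and H2-M10.6 carried the same motif word, AGACCAGAAGGTGGCAACA, which occurred 3 times in mm9, each time here and in a peak. All 3 pointed against the direction of the gene. Their heights were 15 tags (8.40 to 24.7; 47 CTCF and 5 IgG tags), 38 tags (26.9 to 52.2) and 44 tags (32 to 59.1). The same 19 bases thus stood at H2-M10.3 in a site whose counting interval lies below those of the other two, with 83.4, 80.8 and 90.8% of unique words in the 3 peaks. The sites were not alike in all else. The stretches at H2-M10.5 and H2-M10.6 that matched each other's windows held 2 motif matches, and those at H2-M10.3 that matched these windows held 1. In the stretches that matched the window of the H2-M10.3 site, H2-M10.5 and H2-M10.6 held 1 each. The part of the further match in the heights was not tested. Their sequences were the following.
H2-M10.3, chr17:36494658-36494676, plus strand: acaggAGACCAGAAGGTGGCAACAgacat
H2-M10.5, chr17:36923731-36923749, minus strand: acaggAGACCAGAAGGTGGCAACAgacat
H2-M10.6, chr17:36961255-36961273, minus strand: actggAGACCAGAAGGTGGCAACAgacat

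The third shared word, CTGTCTGTAGAGGGCAGAA, stood in the site past the end of the first H2-Q2 gene and in a site of 11 tags 6.66 kb upstream of H2-Bl. It occurred 4 times in mm9, of which 3 in the cluster and 2 in a peak. The occurrence in the cluster outside peaks, near H2-T3, lay in a 10 kb window with only 10 CTCF and 6 IgG tags.

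Pairs of like sites stood along the T genes. Sites at H2-T23 (7 tags) and H2-T10 (10 tags) were 91.7 to 92.1% identical, those at H2-T22 and H2-T10 (10 tags each) 97%, and those at H2-Bl (23 tags, 65 CTCF and 9 IgG tags) and H2-T9 (10 tags, 12 CTCF and 2 IgG tags) 93.0 to 93.4%. H2-T23 encodes Qa-1, a ligand of inhibitory receptors on natural killer cells, and H2-T22 and H2-T10 are known for ligands of gamma-delta T cells. In the annotation used, H2-T10 and H2-Bl are polymorphic pseudogenes. A further copy of the H2-T9 site lay 3.36 kb from H2-T3 (chr17:36330438-36330737, 86.6% identity). It held a motif with a p of 4.35e-08, where that at H2-T9 had 2.90e-07, all its words were unique, and it had 0 CTCF and 0 IgG tags, which allows up to 3 tags in each library.
H2-T9: cagaaACACCAGCAGGAGGCGCTGtgagt
H2-T3 copy without a peak, chr17:36330685-36330703, minus strand: cagaaGCACCAGCAGGTGGCGCTGtgagc

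Over the cluster, 10 copies of H2 region sites overlapped no peak, and 6 of these held a motif match. Together they held 15 CTCF and 7 IgG tags, and their unique words ranged from 38.5 to 100%. The H2-T3 copy was the only 1 of the 6 with at least 90% of unique words. The site at H2-M6-ps, with 38 matching stretches in the span of which 3 overlapped a peak, was kept out of these counts. Another of the 6, at chr17:36311893-36312175, lay in a 10 kb window with 10 CTCF and 6 IgG tags. The windows before it, from 2210 to 2240 kb along the cluster, held 1 to 9 CTCF and 3 to 5 IgG tags each. Their unique words were 66.7 to 70%. With so few tags in either library, the lack of a peak there cannot be read as a lack of CTCF.

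Most sites in the H2 regions held a CTCF motif. A match at p 1e-05 within 150 bp of the summit was found in 37 of 45 sites, or 82.2% (95% Wilson interval 68.7 to 90.7), beside 73.6% (73.1 to 74.1) of all summits, so the interval includes the value over all sites. Sites with a motif had a median height of 16 tags and the 8 without one a median of 10, where all summits had 14 and 10. The motif centre lay a median of 68 bp from the summit (2 to 135).

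Direction was counted along the chromosome and along the genes. Of the 37 motifs, 17 lay on the plus and 20 on the minus strand. Over the 110 of 140 sites of the cluster with a motif, 59 of 109 neighbouring pairs pointed the same way (54.1%, 44.8 to 63.2), 25 were convergent and 25 divergent (22.9% each, 16 to 31.7), beside 50.2, 24.9 and 24.9% over the genome. The intervals include the genome values. Upstream of the nearest H2 gene, 13 of 16 motifs pointed along it and 3 against it, but 6 of the 13 are the like sites described above and are no independent observations. Downstream, 7 pointed along and 10 against, and inside genes 3 along and 1 against.

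Tags over whole regions ranked the groups in the same order as the density of peaks, apart from the pair H2-Ke2 and H2-Ke6, whose ratio was 2.27 (1.74 to 2.98). The peaks were called from these same tags, so the shared order is not independent support, and the intervals of the T and Q ratios overlap. The H2 regions together held 4978 CTCF tags against 2677 IgG tags, and scaled for depth this ratio was 1.77 (1.69 to 1.86), and 1.32 (1.26 to 1.39) without the tags in peaks. By group the ratio was 2.98 (2.58 to 3.47) for classical class I, 2.4 (2.09 to 2.77) for class II loading, 2.14 (1.90 to 2.42) for T, 2.05 (1.79 to 2.36) for Q, 1.47 (1.28 to 1.68) for class II presenting and 1.16 (1.07 to 1.26) for M genes. Outside peaks the M genes stood at 0.969 (0.888 to 1.06) and the other 5 of these groups between 1.24 and 1.75, with class II loading and classical class I both at 1.75. GC content was 42.5% in the M regions, 45.0% at class II presenting genes and 46.2 to 48.3% in the Q, T, class II loading and classical class I regions, but highest at H2-Ke2 and H2-Ke6 (54.8%), and its part in the ratios was not tested.

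In single genes, 29 of 42 H2 regions (69.0%) had more CTCF than IgG tags at an adjusted p under 0.05 (exact conditional binomial test, two-sided, Benjamini-Hochberg over 36660 genes with tags), against 37.1% of all genes and 81.4% of the class III interval genes. In the gene bodies alone it was 9 of 42 (21.4%), against 17.8% of all genes and 20.8% of those with a tag in the body. H2-D1 had the highest ratio, 3.56 (2.73 to 4.68), from 269 CTCF and 72 IgG tags. The lowest among the classical genes was that of H2-K1, 2.09 (1.66 to 2.65), from 235 CTCF and 107 IgG tags. Among class II loading genes the lowest was H2-Ob, part of the H2-O heterodimer, with 197 CTCF and 112 IgG tags and a ratio of 1.67 (1.32 to 2.13). H2-Ab1, the beta chain of I-A, stood lowest among the presenting genes, with 122 CTCF and 98 IgG tags, a ratio of 1.19 (0.901 to 1.56) and an adjusted p of 0.317. The second H2-Q2 gene had 82 CTCF and 92 IgG tags, a ratio of 0.849 (0.622 to 1.16) and an adjusted p of 0.388. H2-T9 stood lowest among the T genes with 95 CTCF and 67 IgG tags, a ratio of 1.35 (0.977 to 1.87) and an adjusted p of 0.106. H2-Ke2, the first gene of the cluster, had no peak but 90 CTCF and 47 IgG tags, a ratio of 1.82 (1.27 to 2.65) with an adjusted p of 0.00239. H2-M2, the last, had 51 CTCF and 57 IgG tags, a ratio of 0.852 (0.572 to 1.27) and an adjusted p of 0.545.

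**Figure D4:**
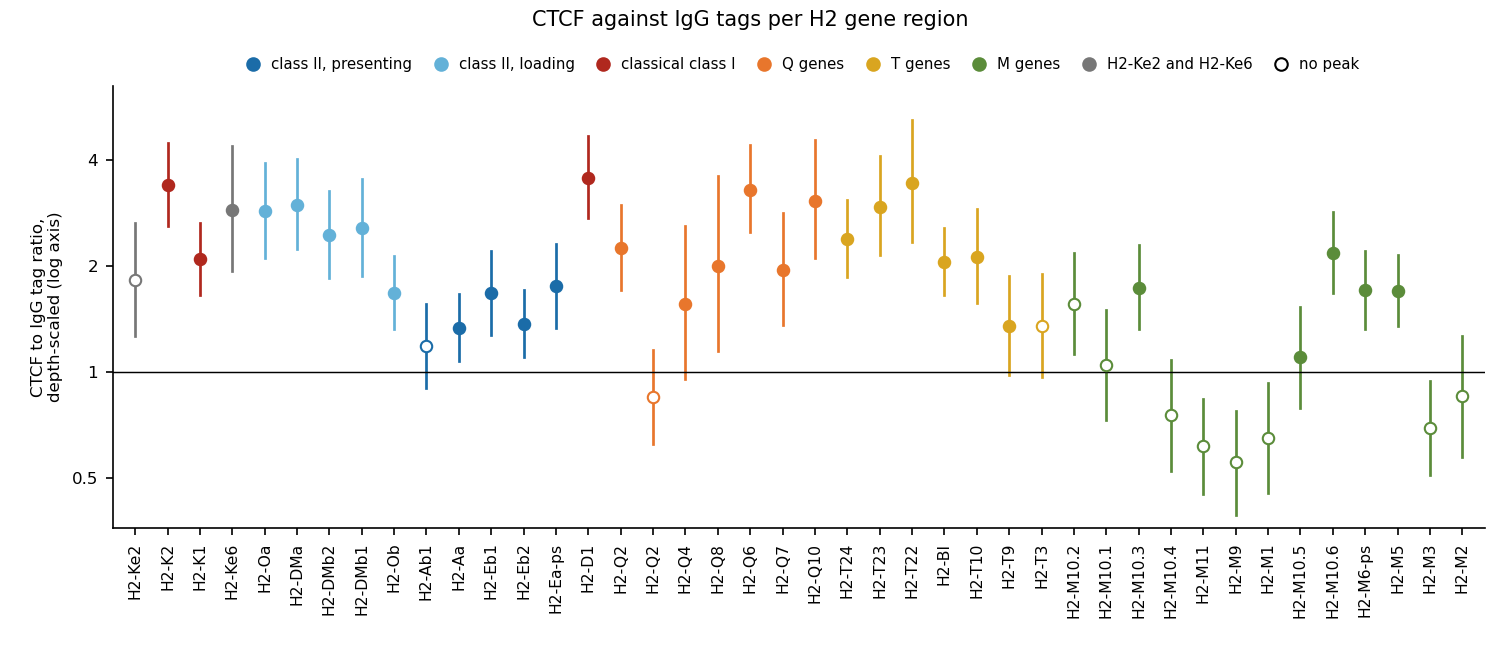
Tag ratio (CTCF over IgG, scaled for depth) over each of the 42 H2 gene regions (log axis), in order along the chromosome, with exact 95% intervals for counting error. Open circles mark genes without a peak. The ratios run from 0.554 at H2-M9 to 3.56 at H2-D1, and the genes from H2-M10.4 to H2-M1 lie below 1.

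The M genes held the opposite end. IgG tags exceeded CTCF tags at an adjusted p under 0.05 in 4 of 42 H2 regions (9.52%, against 11.9% of all genes and 0 of 97 class III interval genes), all M genes without a peak. H2-M9 had 57 CTCF and 98 IgG tags, a ratio of 0.554 (0.392 to 0.775) and an adjusted p of 0.00121. H2-M11 stood at 0.615, H2-M1 at 0.651 and H2-M3, which presents formylated bacterial peptides, at 0.693. With scaling by the tags outside peaks, where the genome stands at 0.898 on the scale used above, 2 of the 4 calls were kept, H2-M9 and H2-M11. H2-M9, H2-M11 and H2-M1, like the M10 genes, are known from vomeronasal neurons.

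These genes lay in the longest stretch of the cluster without a peak. It spanned 307 kb (chr17:36555958-36862928) between H2-M10.3 and H2-M10.5 and contained H2-M10.4, H2-M11, H2-M9 and H2-M1. It held 715 CTCF and 999 IgG tags, a ratio of 0.681 (0.618 to 0.751), with 3.25 IgG tags per kb beside 3.10 over chromosome 17. Of its 35-base words 71.8% were unique, and its GC content was 42%, where chromosome 17 has 42.7%. H2-M10.3 on one side had 153 CTCF and 84 IgG tags and 2 peaks, and H2-M10.5 on the other had 82 CTCF and 71 IgG tags and reached 1 peak. The second-longest stretch ran for 242 kb to the end of the cluster with H2-M3 and H2-M2, and held 641 CTCF and 773 IgG tags.

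The near-identical class I genes limit where tags could be placed. Nearly all tags on chromosome 17 (99.8% in the CTCF and 99.7% in the IgG library) lay at 35-base words that occur once in the genome, and such words made up 73.5% of the H2 regions. The share was 93.8% in class II presenting and 86.9% in class II loading genes, 84.5% in classical class I, 80.4% in M, 56.8% in T and 45.1% in Q genes, with the lowest single value at H2-Q7 (22.0%). IgG tags per kb were 2.06 in the Q and 2.51 in the T regions, 3.38 in classical class I, 3.53 in class II presenting and 3.62 in M regions, but 2.71 in class II loading and 1.86 at H2-Ke2 and H2-Ke6, where 91.4% of words were unique. Per 1000 unique words they ranged from 2.04 at H2-Ke2 and H2-Ke6 and 3.12 in class II loading to 4.57 in Q regions. Across the 42 regions, which overlap in part, Pearson's r between the unique share and IgG tags per kb was 0.62 and Spearman's rho 0.56, as a description. Sites were called where only some of the words around them were unique, down to 37.5% of a peak at H2-Q8.

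**Figure D5:**
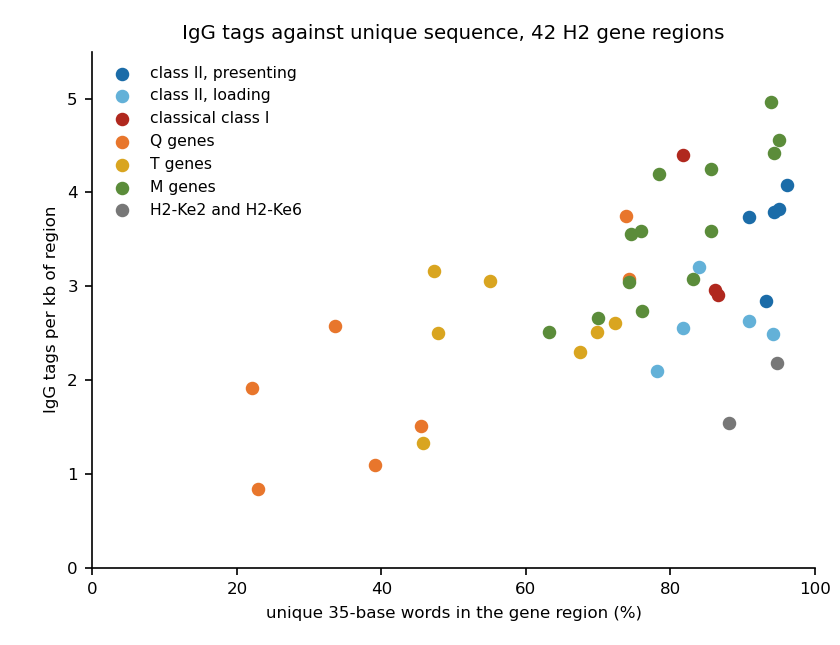
IgG tags per kb against the percentage of 35-base words that occur once in the genome, for 42 H2 gene regions coloured by group. The Q genes reach down to 22.0% of unique words, and H2-Ke2 and H2-Ke6 hold few IgG tags with 94.7 and 88.1% of unique words.

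Strong motif matches outside peaks mostly shared a 12-base word. At p 1e-06 the H2 regions held 77 matches, of which 46 (59.7%, 48.6 to 70.0) lay outside peaks. Of these 46, 33 had fewer than 90% of unique words around them and 21 had none. Their 301-base windows held 88 CTCF and 20 IgG tags, a ratio of 4.19 (2.56 to 7.19). Their most frequent 12-base word, CCAGAAGAGGGC, searched on both strands, stood in 33 of the 46 matches (71.7%), in the windows of 1 of the 45 H2 sites (2.22%) and in those of 12% of all 33756 sites. This word was picked from the 46 matches, so its high share there is no independent result. The windows of the sites are also longer than the matches with their flanks. Of the 33 matches with these letters, 18 had no unique word spanning them and 29 under 90%, against 3 and 4 of the 13 without them. Examples of both kinds follow, the last without these letters.
H2-T10, chr17:36249096-36249114, plus strand: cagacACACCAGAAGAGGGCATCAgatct
H2-Q7, chr17:35579039-35579057, plus strand: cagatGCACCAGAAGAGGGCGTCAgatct
H2-Ea-ps, chr17:34489610-34489628, minus strand: cctatTACCCACCAGGGGGCAGTGgaaaa

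Genes that work with the MHC molecules were mostly near CTCF sites as well. Of 19 listed antigen presentation genes, which correspond to 21 gene IDs, 19 IDs had a peak within 10 kb (48.8% of all genes and 61.2% of protein-coding genes had one) and 18 had more CTCF than IgG tags by the same test (37.1% of all genes and 45.4% of protein-coding genes), with a median ratio of 1.72, beside 1.74 for the H2 genes and 1.13 for all genes. The 5 IDs inside the cluster, for the transporter genes Tap1 and Tap2 and the immunoproteasome genes Psmb8 and Psmb9 (2 IDs), all had a peak, with 131 to 148 CTCF and 53 to 77 IgG tags. Their regions overlap and share 2 distinct sites. Both Psmb9 IDs, which had the same counts, reached a site of 17 tags, and Psmb8 and Tap2 one of 10 tags. Tap1 reached both. Tapbp, which encodes the tapasin that loads class I molecules and lies just before the cluster, had 6 peaks and 317 CTCF against 68 IgG tags, a ratio of 4.44 (3.41 to 5.86). B2m, the light chain of class I on chromosome 2, had 2 peaks and 152 CTCF against 76 IgG tags, a ratio of 1.90 (1.44 to 2.54). The last Q gene, H2-Q10, lies 31.5 kb before the pluripotency gene Pou5f1, and 2 CTCF sites of 14 and 11 tags stand between them.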

How the data were processed

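Tags, CTCF peaks and summits of 2 ChIP-seq libraries were used. The authors deposited 1 line per aligned tag, a count of 1 each, without normalization. They deposited peak intervals with the MACS score, which is the negative log10 of the p-value over IgG multiplied by 10, with a minimum of 50, and summit heights as a signal in tags. MACS 1.4 and mm9 stand in the submitters' processing notes. The aligner and the meaning of a 0/1 column in the tag files are not given in the sources used here.

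The members and lists were chosen with earlier results of these data known. H2 genes were grouped by symbol. In each group the genes with the highest summit and the lowest ratio were named, with the 5 highest sites, the genes beside the longest stretch without a peak and the first and last gene. Each tag was shifted 93 bp toward its 3′ side (fragments measured 187 bp at the 1000 highest peaks) and counted with Python 3.11.15, numpy 2.4.6, scipy 1.17.1 and pandas 2.3.3. Ratios were scaled by total tags and carry exact (Clopper-Pearson) 95% intervals, shares Wilson intervals and heights exact Poisson intervals, all for counting error only. No position and strand held more than 1 tag in either library. Further tags at such a position, from PCR copies or from separate molecules, are thus absent from the heights and counts. The motif matrix came from 192 CTCF sequences listed for RAD21 sites, with a pseudocount of 1 and background frequencies of 0.29 (A, T) and 0.21 (C, G). Its thresholds were exact. Sequence was that of NCBI m37 (mm9). Unique words were counted over the whole genome with numba 0.67.0. Like sequences were found with blastn 2.17.0 in the cluster span, at 80% identity over 200 bases or more. Scripts were tested on simulated data. Of 33788 peaks, the 33756 on chromosomes 1 to 19, X and Y were used for shares. Figures were drawn with matplotlib 3.10.9.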

Additional observations from a re-analysis of the deposited data

How the results depend on the processing

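No paired analysis was possible because neither antibody has a second library. Of 38 alternatives over 13 results, 23 stayed near the value given and 15 moved. Without the flank, 5 H2 genes (11.9%, against 26.2% of all genes) had a peak, with 5 distinct peaks in all, so the H2 genes stood below all genes where they stood above them with it. Without it, 9 genes had more CTCF than IgG tags (21.4%, against 17.8% of all genes and 20.8% of those with a tag in the body), the ratio was 1.5, 74.0% of words were unique and 9 antigen presentation gene IDs had a peak, and the cause was not tested. The ratio over the H2 regions was 1.97 when scaled by tags outside peaks and 1.32 with tags in peaks left out. With a ratio of at least 2 as the call, 17 genes stood above IgG (40.5%, against 13.9% of all genes). The share of sites with a motif was 91.1% at p 1e-04 and 33.3% within 50 bp of the summit. The share of strong matches outside peaks was 76.4% at p 1e-05 and 35.1% where at least 90% of the words spanning the match were unique. The density of IgG tags relative to chromosome 17 turned from below 1 (0.956, 0.92 to 0.993) to above 1 per unique word (1.09, 1.05 to 1.14), and was 1.29 for CTCF tags outside peaks. The longest stretch without a peak was 367 kb for peaks with a score of at least 100. With 1 library per antibody, variation between cultures is not known, and fewer tags of 35 bases could be placed in repeated class I sequence.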

Other observations

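The interval from H2-Q10 to H2-T24, which holds Pou5f1 and no H2 gene, had 37 summits in 511 kb, or 72.4 per Mb, with a median height of 14 tags and up to 39 tags. The class III interval, with complement and cytokine genes among others, had 32 summits in 898 kb (35.6 per Mb) and a height of at most 26 tags. The interval from the T to the M genes had 1 summit in 73.9 kb (13.5 per Mb). The block of the M genes had 25 summits in 1219 kb (20.5 per Mb). Depth-scaled CTCF to IgG ratios were 2.42 (2.28 to 2.58) in the Q to T interval, 1.89 (1.80 to 1.99) in the class III interval, 1.60 (1.34 to 1.92) in the T to M interval and 1.14 (1.09 to 1.19) in the M block, with 89.7, 85.6, 89.5 and 77.7% of unique words.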
